A study of Mus musculus with 7 samples.

Results

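Germ cell, epididymis and seminal gland genes were followed in medullary epithelial cells of the mouse thymus. The set holds 37 named genes, listed by what they do and drawn up with earlier results of these data known, of 19937 genes with a symbol of their own on the array. A single probe set carried each of 36 genes, and Crisp1, a secreted protein of the epididymis, was not analysed here because no probe set had it as its only symbol. The members were read in all 7 arrays and compared between reconSCID and reconRAG1KO, and the few that exceeded the middle of the array's level range were also taken alone.

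Medullary thymic epithelial cells transcribe genes of peripheral tissues in small amounts, many of them through the regulator Aire, and so show developing T cells antigens that they would otherwise first meet outside the thymus. Testis and male tract genes belong to these antigens: sperm appear only at puberty, behind the blood-testis barrier, and antibodies against sperm, prostate or seminal vesicle proteins occur where central tolerance is impaired. Protamines and transition proteins pack sperm DNA, acrosomal proteins act at the egg coat, and the Svs genes encode the proteins of the copulatory plug.

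The cells, labelled MHCIIhi MECs, were sorted from thymi of NOD mice, a strain prone to autoimmune diabetes, so both groups share that background. The 4 reconRAG1KO samples came from mice with a null Rag1 gene, the control of the series, and the 3 reconSCID samples from SCID mice, whose mutation affects DNA-PK. All recipients were irradiated with 200 rad, were given bone marrow into the abdomen 6 h later at an age of 2 to 4 days, and were analysed after 6 to 8 weeks. The genotype of the marrow donors, the sex of the mice and the number of thymi per sample are not given in the sources used here. Replicates are called biological, and p-values measure only the spread between these samples. Of 24 measured medullary markers 24 lay above the median level, with Aire at 11.20 ± 0.49 (SD, n = 4) and 10.63 ± 0.87 (SD, n = 3) on the log2 scale. So did 15 of 15 dendritic cell and macrophage markers and 9 of 10 cortical epithelial markers. Among B cell markers 14 of 16 did, and among T cell and thymocyte markers 11 of 14. The count of medullary markers therefore does not by itself establish the label of the cells.

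The stretches of 60 bases just upstream of the transcription start are shown for 8 members in 2 groups of genome neighbours, because position and promoter sequence are features that the list did not use. Tnp2, Prm2 and Prm1 lie side by side and include both protamines, which were above the median level; Svs2, Svs4, Svs3a, Svs6 and Svs5 form a row of seminal gland genes that all stayed below it. The sequences are from RefSeq, build GRCm38.p6, written 5′ to 3′ along the strand of the gene. Capitals mark TATAAA or its reverse complement TTTATA, the core of a TATA box.
Tnp2 (chr16:10788656-10788715, minus strand): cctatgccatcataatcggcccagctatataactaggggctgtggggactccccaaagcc
Prm2 (chr16:10792106-10792165, minus strand): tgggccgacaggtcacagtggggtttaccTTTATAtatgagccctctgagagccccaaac
Prm1 (chr16:10796824-10796883, minus strand): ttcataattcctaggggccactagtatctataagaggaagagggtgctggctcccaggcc
Svs2 (chr2:164238342-164238401, minus strand): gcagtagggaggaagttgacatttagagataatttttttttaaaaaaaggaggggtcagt
Svs4 (chr2:164278308-164278367, minus strand): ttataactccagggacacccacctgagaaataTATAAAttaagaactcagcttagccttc
Svs3a (chr2:164289207-164289266, plus strand): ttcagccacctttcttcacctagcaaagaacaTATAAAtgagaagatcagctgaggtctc
Svs6 (chr2:164316691-164316750, plus strand): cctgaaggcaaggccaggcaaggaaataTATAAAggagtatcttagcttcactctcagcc
Svs5 (chr2:164332705-164332764, plus strand): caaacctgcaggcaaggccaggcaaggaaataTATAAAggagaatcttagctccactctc
TATAAA stood in this window in Svs4, Svs3a, Svs6 and Svs5, beginning 28 bases upstream of the start in Svs4, Svs3a and Svs5 and 32 bases upstream in Svs6, and Prm2 held the reverse complement from 31 bases upstream. Svs2 held the motif 2 times farther upstream within 250 bases. The windows of Svs5 and Svs6 were identical at 53 of 56 bases when shifted by 4 bases (94.6%). Within 250 bases upstream, on either strand, 9 of the 29 members with an entry in the promoter table held TATAAA (31.0%), against 14.3% of all 27025 genes. The 9 include the whole row of Svs2, Svs4, Svs3a, Svs6 and Svs5, which cannot be counted as independent genes. The rest were Prm2, Lcn5, Pbsn and the unmeasured Crisp1, so the share does not describe the members at large. TGACG, one arm of the cAMP response element through which many spermatid genes are switched on, stood in 6 of 29 (20.7%) against 19.8%, and the full element TGACGTCA in 0 of 29 against 1.77%. These are letter matches and not measured binding.

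Most of these genes read low in thymic epithelium, in both groups. The median of all probe set means was 6.51 on the log2 scale, and 3 of 36 members (8.33%) lay above it, compared with 57.9% of all genes. The 3 were Odf2, Prm2 and Prm1. They were above the array's own median in all 7 arrays, 5 members were above it in some arrays, and 28 in no array. Of 252 pairs of a member and an array, 29 were above. The 5 members that crossed the line were Fabp9, Zp2 and Sohlh1 in 2 arrays each and Acr and Defb20 in 1 array each. Just inside the line stood Prm1 with a mean of 6.78, and just outside it Sohlh1 with 6.47 and Zp2 with 6.31. Intensities of different probe sets depend on their probes, so the levels give no order of transcript amounts among the genes, and a level below the median is no proof that a transcript is missing. In bulk samples fewer cells that transcribe a gene and less RNA per cell cannot be told apart.

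**Figure D1:**
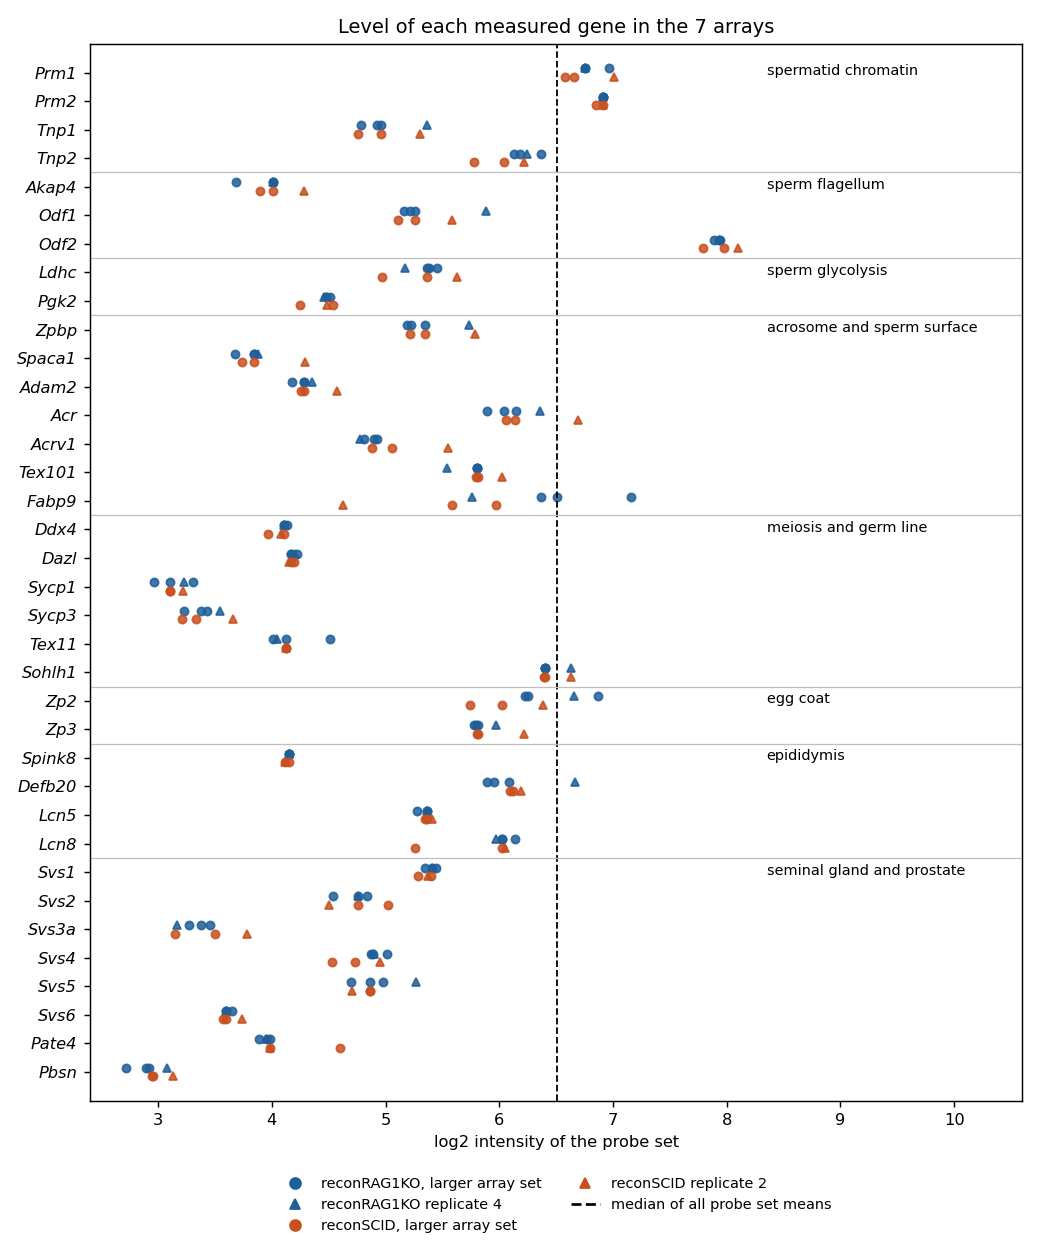
Level of 36 members in each of 7 arrays (log2 intensity, horizontal axis), by role; blue is reconRAG1KO, orange reconSCID, and triangles are the 2 arrays that stood apart. The dashed line is the median of all probe set means (6.51), and only Prm1, Prm2 and Odf2 lie wholly to its right.

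By role, the 3 members above the median level all belonged to the spermatid chromatin and flagellum genes. Among the spermatid chromatin genes 2 of 4 members were above the median level, among the flagellum genes 1 of 3, and among the 2 sperm glycolysis, 7 acrosome and sperm surface, 6 meiosis and germ line, 2 egg coat, 4 epididymis and 8 seminal gland and prostate genes none. Odf2 encodes a fibre protein of the sperm tail that is also part of the centrosome in other cells. Ddx4, a germ line RNA helicase, had group means of 4.11 and 4.05 with 4 different values in 7 arrays, and Dazl, a germ line RNA-binding protein, 4.19 and 4.17 with 5.

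Identical values were common. In 25 of 36 members at least 2 arrays held exactly the same deposited value, compared with 72.2% of all genes at or below the median level and 47.3% of those above it. Prm2 had 2 different values in 7 arrays: it measured 6.91 in 6 of them and 6.85 in reconSCID replicate 3. Spink8, a protease inhibitor of the epididymis, had 3 different values. The SD of such genes is computed from repeated values. In 11 members all 7 values differed.

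The comparison asks whether expression in the epithelium differs where DNA-PK, which binds Aire, is defective. No member passed the test, and differences went both ways. By limma 0 of 36 members passed at an adjusted p under 0.05, against 0% of 34760 probe sets, and the lowest adjusted p among the members was 1. The median log2 difference, reconSCID minus reconRAG1KO, was -0.006, with 19 members lower and 17 higher, compared with a median of -0.007 over all genes, and 23 were lower and 13 higher within the 5 arrays of the larger array set described below. At an unadjusted p under 0.05 there were 1 lower member and 0 higher ones, where 3.33% of all probe sets passed, 1.13% lower and 2.20% higher. The groups of all 36 members overlapped, where 1.43% of all probe sets had every reconSCID array below every reconRAG1KO array and 2.09% had it above. A count of 0 among 36 members is near these shares. Among the 3 members above the median level the median was -0.02.

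**Figure D2:**
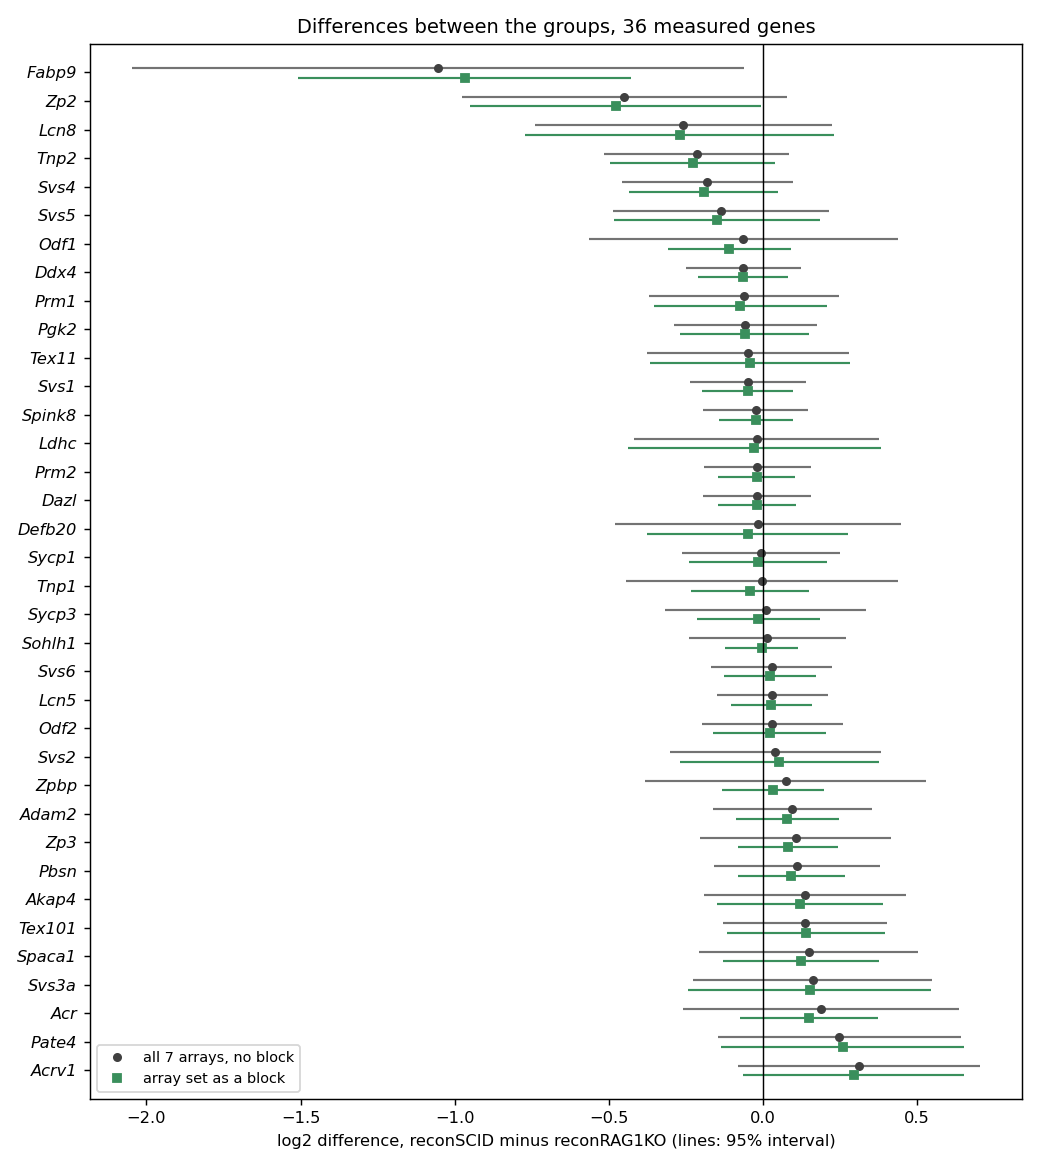
Log2 difference, reconSCID minus reconRAG1KO, for 36 members with 95% intervals, from all 7 arrays (grey circles) and blocked by array set (green squares). Fabp9 stands at -1.05 and -0.97, and the other members lie between -0.48 and 0.31.

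The arrays themselves fell into 2 sets, which bears on every value here. The smaller set was reconRAG1KO replicate 4 with reconSCID replicate 2 (r = 0.972 over all probe sets), and r across the sets was 0.922 to 0.947. In 13 of 36 members both of these arrays were above all 5 others, where 32.7% of all probe sets were, and in 0 both were below, where 18.7% were. This is given without a test because the sets were found in these values. Over all genes at or below the median level the shares were 49.1% and 2.86%. Tnp1, a transition protein, measured 5.37 and 5.30 in these 2 arrays and 4.76 to 4.96 in the others, and Odf1, of the outer dense fibres, 5.88 and 5.58 against 5.11 to 5.26. With the sets as a block in the fit (blocked, from here on) the median of the members was -0.02 and their lowest adjusted p 0.2565. The block was itself found in these values, so blocked p-values and intervals describe the data and are no independent test. Of the members 2, Fabp9 and Zp2, both lower, had an unadjusted p under 0.05, where 12.3% of all probe sets did, 5.77% lower and 6.53% higher. Within the 5 arrays of the larger set 2 members did, Fabp9 and Svs4, where 15.5% of all probe sets did. The interval of the difference lay within 1 log2 unit of 0 for 35 of 36 members, with or without the block, and within 0.5 for 25 without and 30 with it. Differences at low intensity can understate a change in transcript.

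Fabp9, a fatty acid binding protein of the sperm head, had the largest difference. Its log2 intensity was 7.16, 6.37, 6.51 and 5.76 in reconRAG1KO replicates 1 to 4 and 5.97, 4.62 and 5.59 in reconSCID replicates 1 to 3. The groups overlapped through reconRAG1KO replicate 4, which was below reconSCID replicate 1. Means were 6.45 ± 0.57 (SD, n = 4) in reconRAG1KO and 5.39 ± 0.70 (SD) in the 3 reconSCID arrays, which gives a difference of -1.05 ± 0.42 (SE) with an interval from -2.05 to -0.06. The limma p of Fabp9 was 0.04048 and its adjusted p 1. In the blocked fit the difference was -0.97, with an interval from -1.51 to -0.43, an unadjusted p of 0.004775 and an adjusted p of 0.2565. It was -0.90 within the larger set (5 arrays) and -1.14 within the smaller (2 arrays). Inside each array set every reconRAG1KO array of Fabp9 was above every reconSCID array. Without reconSCID replicate 2, the lowest array, the unblocked difference was -0.67 and its unadjusted p 0.1369. The unadjusted p was also above 0.05 without reconRAG1KO replicates 1, 2 or 3 or reconSCID replicate 3, at 0.0669 to 0.0869, with differences of -1.15 to -0.82.

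Fabp9 lies in a row of fatty acid binding protein genes, which were looked at after its values had been seen. Pmp2, the myelin protein P2 gene, differed by -0.40 ± 0.15 (SE), or by -0.40 with the block (interval -0.76 to -0.05). Fabp4, of fat cells and macrophages, differed by -0.55, or by -0.53 with the block (interval -1.13 to 0.08). Fabp5, of skin and many epithelia, differed by -0.72, or by -0.58 with the block (interval -0.92 to -0.25), and near-identical copies of this gene make its probe set uncertain. Fabp12 measured 5.66 to 5.70 in the 7 arrays and differed by -0.01. The adjusted p of each of these genes was 1 without the block, and cross-hybridisation between these related genes was not tested. With the block, 12.3% of all probe sets had an unadjusted limma p under 0.05. Of other genes nearby, Chmp4c and Gm9833 differed by -0.37 and -0.33, and Impa1, Slc10a5 and Zfand1 by 0.03, -0.06 and -0.02.

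**Figure D3:**
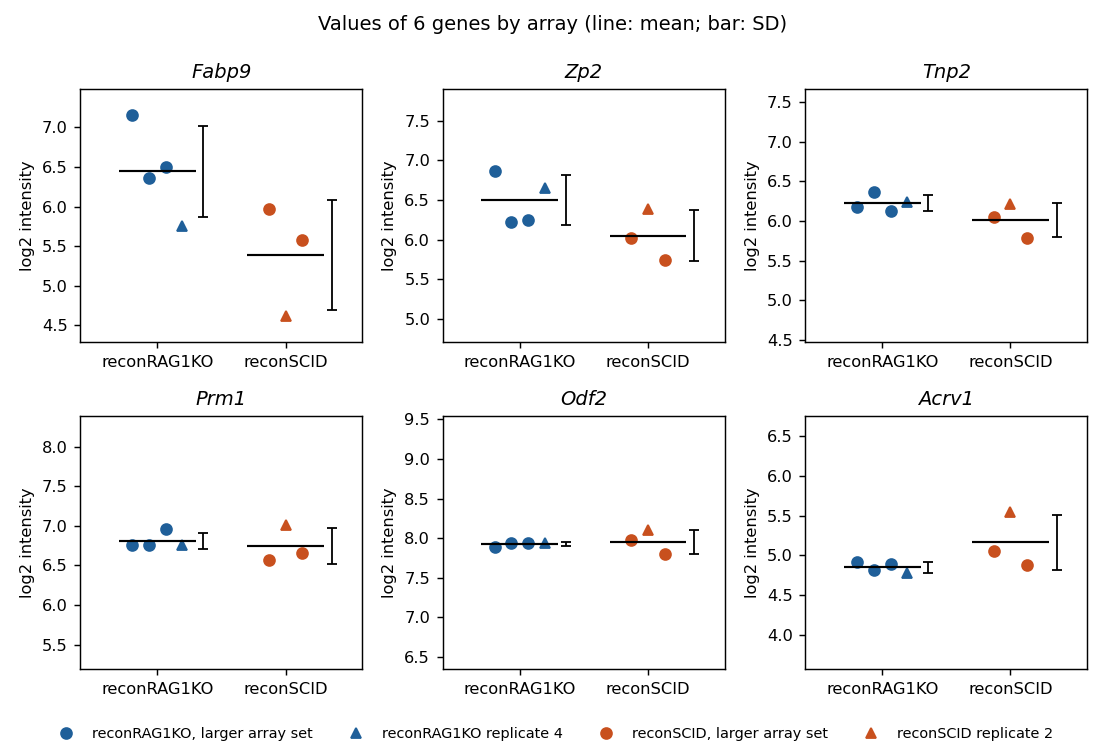
Log2 intensity of 6 members by array on vertical axes of equal length; the line is the group mean, the bar its SD (n = 4 and n = 3), and triangles are reconRAG1KO replicate 4 and reconSCID replicate 2. Fabp9 spans 4.62 to 7.16, while Odf2 stays between 7.79 and 8.10.

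The egg coat genes had means on opposite sides of 0. Zp2, to which sperm bind, measured 6.87, 6.23, 6.25 and 6.65 in reconRAG1KO and 6.02, 6.39 and 5.74 in reconSCID. The groups overlapped through reconSCID replicate 2. The difference of Zp2 was -0.45 ± 0.22 (SE), with a limma p of 0.08283 and an adjusted p of 1. Blocked, it was -0.48 (interval -0.95 to -0.01), with an unadjusted limma p of 0.04722 and an adjusted p of 0.4015. Without reconSCID replicate 3 the difference of Zp2 was -0.29. Zp3, a structural protein of the same coat, stood at 5.84 ± 0.09 (SD) in the 4 reconRAG1KO arrays and at 5.94 ± 0.24 in the 3 reconSCID arrays, 0.11 higher, or -0.031 without reconSCID replicate 2. Whether Zp2 and Zp3 differed from each other was not tested.

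Genes of spermatid chromatin differed by -0.22 to -0.004. Tnp2, a transition protein that replaces histones, measured 6.18, 6.36, 6.13 and 6.24 in reconRAG1KO and 6.04, 6.21 and 5.78 in reconSCID, with groups that overlapped. The difference of Tnp2 was -0.22 ± 0.13 (SE), with a limma p of 0.1326, and -0.23 with the block (interval -0.50 to 0.04). Without reconSCID replicate 3 the unblocked value was -0.10. Prm1, the protamine that takes over from the transition proteins, measured 6.76, 6.76, 6.96 and 6.76 in reconRAG1KO and 6.57, 7.005 and 6.66 in reconSCID. The difference of Prm1 was -0.06 (interval -0.37 to 0.25), and it was -0.21 within the 5 arrays and 0.25 within the 2 arrays. Prm2, the second protamine, differed by -0.02 (interval -0.19 to 0.15). The neighbours whose upstream sequences are printed above, Tnp2, Prm2 and Prm1, thus had 3 of 3 differences below 0 and 0 that passed. This count rested on single arrays: Prm2 was 0 without reconSCID replicate 3, and Prm1 was 0.024 without reconSCID replicate 1.

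Flagellum, glycolysis and meiosis genes showed no difference beyond the spread between samples. Odf2 measured 7.89, 7.94, 7.94 and 7.94 in reconRAG1KO and 7.97, 8.10 and 7.79 in reconSCID, a difference of 0.03 (interval -0.20 to 0.26). Akap4, the scaffold of the fibrous sheath, differed by 0.14 and Odf1 by -0.06. Ldhc and Pgk2, the lactate dehydrogenase and phosphoglycerate kinase of sperm, differed by -0.02 and -0.06. The 6 meiosis and germ line genes differed by -0.06 to 0.01. This includes Sycp1 and Sycp3 of the synaptonemal complex, Tex11, an X-linked meiotic gene, and Sohlh1, a regulator of early germ cells.

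On the higher side, 6 of 7 acrosome and sperm surface genes had means above those of reconRAG1KO, where 47.6% of all genes did, and none passed. Without reconSCID replicate 2 the count was 2 higher (Acrv1 and Tex101) and 5 lower. Acrv1, an acrosomal protein, measured 4.92, 4.81, 4.90 and 4.77 in reconRAG1KO and 5.06, 5.55 and 4.88 in reconSCID, with groups that overlapped through reconSCID replicate 3. Its difference was 0.31 ± 0.16 (SE), with a limma p of 0.1017, or 0.09 within the 5 arrays and 0.78 within the 2 arrays. Acr, the acrosomal protease acrosin, measured 6.14, 6.04, 5.89 and 6.36 against 6.14, 6.69 and 6.06, a difference of 0.19. Spaca1, needed for the acrosome's shape, measured 3.84, 3.68, 3.84 and 3.88 against 3.74, 4.29 and 3.84, a difference of 0.15. Tex101, a germ cell surface protein, measured 5.81, 5.81, 5.81 and 5.54 against 5.81, 6.03 and 5.79, a difference of 0.14. Zpbp and Adam2, both of sperm binding to the egg, differed by 0.07 and 0.09. In these 6 genes reconSCID replicate 2 was the highest of all arrays. Without it the differences of Zpbp, Adam2, Acr and Spaca1 were -0.096, -0.0058, -0.010 and -0.020, and within the 5 arrays that of Tex101 was -0.004.

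Epididymis genes differed by -0.26 to 0.03. Lcn8, an epididymal lipocalin, measured 6.13, 6.03, 6.03 and 5.97 in reconRAG1KO and 6.03, 6.05 and 5.26 in reconSCID, so that its difference of -0.26 ± 0.20 (SE) came with a single low array, reconSCID replicate 3. The limma p of Lcn8 was 0.2425. Without this array its blocked difference was 0.01. Its neighbour Lcn5 differed by 0.03, and Sohlh1, which follows them on the chromosome, by 0.01. Defb20, a defensin of the epididymis, differed by -0.02 and Spink8 by -0.02.

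Seminal gland and prostate genes had 3 lower and 5 higher means. Svs4 measured 4.89, 5.01, 4.88 and 4.90 in reconRAG1KO and 4.73, 4.95 and 4.53 in reconSCID, with groups that overlapped through reconSCID replicate 2. The difference of Svs4 was -0.18 ± 0.12 (SE), with a limma p of 0.1652. It was -0.29 within the 5 arrays, with a limma p of 0.02419 and an adjusted p of 0.2546, and 0.05 within the 2 arrays. Pate4, of the seminal vesicle, measured 3.99, 3.96, 3.89 and 3.95 against 3.99, 3.99 and 4.60, a difference of 0.25 ± 0.17 (SE) that was 0.04 without reconSCID replicate 3. The row of 5 Svs genes shown above differed by -0.18 (Svs4) to 0.16 (Svs3a), 2 of them lower. The values depended on the smaller array set. Svs3a was -0.04 within the 5 arrays, 0.62 within the 2 arrays and 0.0073 without reconSCID replicate 2. Svs5 and Svs6, whose upstream windows are nearly identical, differed by -0.14 and 0.03, or by 0.02 and -0.03 within the 5 arrays and by -0.56 and 0.14 within the 2 arrays. Without reconRAG1KO replicate 4 the value of Svs5 was -0.03. Svs1, on another chromosome, differed by -0.05 and Pbsn, the androgen-driven probasin gene of the prostate, by 0.11.

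Within both array sets the groups of 4 members did not overlap, a count chosen after the values had been seen. Fabp9, Zp2 and Tnp2 were lower in reconSCID in this way, or 8.33% of the members, where 8.55% of all probe sets were. Pbsn was higher, or 2.78%, where 7.81% of all probe sets were. These shares are near or below the background.

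Marker lists were set beside these values, and no gene of any of them passed after adjustment. The epithelial lists had lower means: 22 of 24 medullary markers (median -0.27, or -0.31 within the 5 arrays and -0.22 within the 2), 7 of 10 cortical markers (median -0.27) and 19 of 19 general epithelial genes (median -0.44). Of all genes 52.4% were lower. The medullary and general epithelial lists share several genes, among them Epcam, so their counts are not independent. Within the 2 arrays the general epithelial genes were 12 lower and 7 higher. Of the B cell markers 15 of 16 were higher in mean (median 0.69), with summed intensities of 2311 to 2499 in reconRAG1KO and 2620 to 6151 in reconSCID, but within the 2 arrays 7 were lower and 9 higher (median 0.11). Of the neutrophil markers 15 of 16 were lower in mean (median -0.85, or -0.10 within the 2 arrays), with overlapping sums of 1861 to 10809 and 1597 to 2385. The T cell and thymocyte markers were 7 lower and 7 higher (median 0.003). Their median was 0.12 in the larger array set (2 lower, 12 higher) but -0.13 in the smaller (10 lower, 4 higher). Dendritic cell and macrophage markers were 5 lower and 10 higher (median 0.15). The larger set gave them 0.58 (1 lower, 14 higher), the smaller -0.19 (11 lower, 3 higher). Fibroblast and endothelial markers were 2 lower and 12 higher (median 0.22). Here the larger set gave -0.03 (8 lower, 6 higher), the smaller 0.44 (1 lower, 13 higher). The direction of these lists thus depended on the array set. No gene of the marker lists was at 0 over all 7 arrays, and the part of these lists in the differences of Fabp9, Zp2 or Tnp2 was not tested. Xist, transcribed from an inactive X, measured 5.11, 9.96, 6.22 and 5.26 in reconRAG1KO and 8.02, 5.68 and 9.61 in reconSCID. The 4 measured sex-linked genes, Xist and Y-linked ones, all had higher means in reconSCID (median 0.51, from 0.31 to 1.13). Within the 2 arrays 3 were higher and 1 lower. Fabp9 was 6.37, 5.97 and 5.59 in the 3 arrays with the highest Xist and 4.62 to 7.16 in the other 4, and the part of sex was not tested.

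Further germ cell and male tract genes, on lists drawn up by what the genes do, stayed low as well. Of 62 other germ cell genes 61 were measured and 4 lay above the median level, and of 41 other male tract genes 36 were measured and 2 did. The median difference was 0.01 in the germ cell list, with 27 lower and 34 higher, and 0.04 in the male tract list, with 10 lower and 26 higher. Within the 5 arrays the counts were 33 and 28, and 18 and 18. Without reconSCID replicate 2 they were 42 and 19, and 23 and 12. By limma 0 genes of either list passed, and at an unadjusted p under 0.05 there were 1 and 0, where 3.33% of all probe sets passed. The 1 gene was Zar1, a maternal factor of the egg, which was also the highest of its list. Zar1 measured 7.97, 8.15, 7.95 and 7.92 in reconRAG1KO and 7.50, 7.92 and 7.37 in reconSCID, a difference of -0.40 ± 0.15 (SE), with a limma p of 0.03176 and an adjusted p of 1. It was -0.59 within the 5 arrays and 0 within the 2 arrays, where both values were identical. Tekt2, of the flagellum, differed by -0.33 and Spam1, the sperm hyaluronidase, by 0.15. Hspa2, a testis chaperone, and Syce2, of the synaptonemal complex, were the next highest in level and differed by -0.02 and 0.21. The value of Syce2 was 0.03 within the 5 arrays, 0.82 within the 2 arrays and -0.02 without reconRAG1KO replicate 4, where it measured 6.38 against 7.31 to 7.33 in the other reconRAG1KO arrays. In the male tract list Msmb, a prostate secretory protein, differed by 0.33, Pate1 by 0.23 and Defb42 by -0.26, while Defb25 and Defb21 differed by -0.03 and 0.03.

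**Figure D4:**
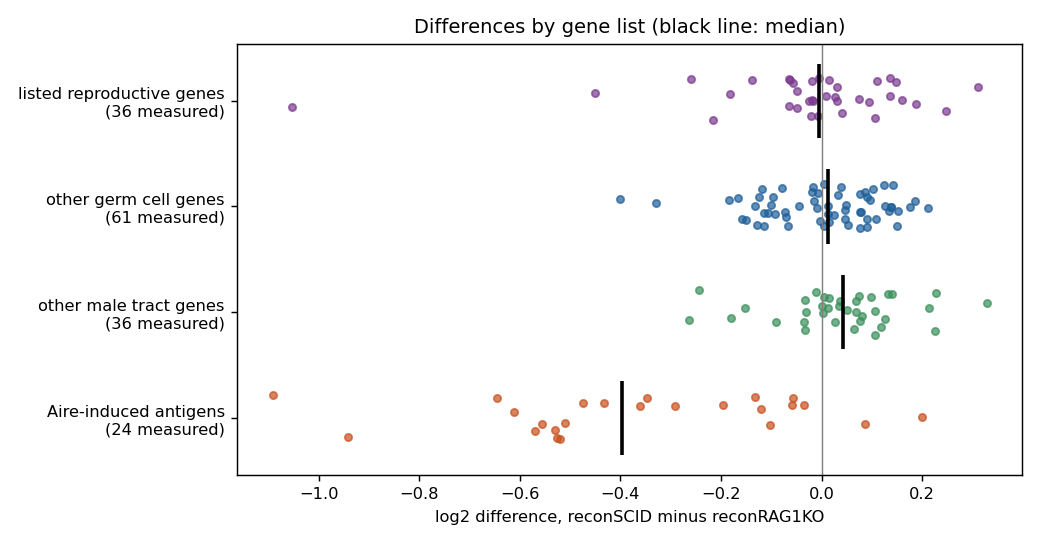
Log2 difference, reconSCID minus reconRAG1KO (horizontal axis), of each measured gene in 4 lists; points are genes spread vertically for legibility and black lines are medians. The medians are -0.006, 0.01, 0.04 and, for the antigens listed as Aire-induced, -0.40.

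Antigens of other tissues that were listed as Aire-induced, none of them in the list described here, are set beside these values. Whether each of them depends on Aire was not tested in these samples. Over 24 measured genes the median was -0.40, with 22 lower, where 52.4% of all genes were lower. By limma 9 had an unadjusted p under 0.05, all of them lower (37.5%), where 1.13% of all probe sets did so, and 0 passed after adjustment. The medullary markers given above also had lower means, and their part in this list's median was not tested. Of the antigens 11 lay above the median level, compared with 3 of the 36 reproductive genes. Blocked, the median was -0.38, compared with -0.02 for the reproductive genes. The list was written with earlier results of these data known, so its direction is no independent evidence, and the difference between the lists was not tested. Aire itself differed by -0.57 (interval -1.63 to 0.49), or by -0.67 blocked (interval -1.25 to -0.08).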

How the data were processed

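Gene expression was measured on Affymetrix arrays in 7 samples, grouped by their titles into reconRAG1KO (4) and reconSCID (3); per the labels, 6 µg of total RNA were made into biotinylated cRNA. The authors deposited linear intensities, 1 for each of 34760 probe sets, whose array medians were close; how they were summarised and normalized, and the genome build, are not given in the sources used here. A single gene symbol was listed by the platform annotation for 21640. Log2 was taken with no pseudocount, since 0 values were below 1. Each gene was read from its probe set with the highest mean; 0 members had several. Gene IDs of 36 members were found in the RefSeq table (GRCm38.p6), used for names and neighbours (starts within 200000 bases).

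Groups were compared by a linear model per probe set (limma 3.58.1, R 4.3.3; lmFit, then eBayes). P-values are two-sided, were adjusted by Benjamini and Hochberg's method across the whole table and were read at 0.05, and intervals are 95% ones. The script was tested on simulated data. Array values are given for members above the median level and for the 5 members per direction with the smallest p. From the other reproductive lists the 3 with the smallest p and the 3 with the highest mean are named. The members and lists were chosen with earlier results of these data known. Alternatives were quantile normalization, median centring, a pseudocount of 16, a filter on low values, a robust fit with trend, the replicate number or the array set as a block, each array set alone, leaving out each sample, averaging probe sets, leaving out tied probe sets and the 75th percentile as the level. The number of arrays limits the precision.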

Additional observations from a re-analysis of the deposited data

Results flagged for a closer look

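In 34 members the 4 reconRAG1KO arrays were searched for a value whose gap to its neighbour exceeded Dixon's 95% critical value, and 10 had one, where chance flags about 1 in 20 groups. In Prm1, Tex101, Ddx4, Sohlh1 and Svs6 the other 3 arrays held identical values, so that any different array stood out. These were Prm1 in replicate 3 (6.96), Tex101 in replicate 4 (5.54), Ddx4 in replicate 3 (4.14), Sohlh1 in replicate 4 (6.63) and Svs6 in replicate 2 (3.65). In the other 5 the gap was 0.844 to 0.996 of the range. Of these, Akap4, Odf2 and Lcn5 also held identical values among the remaining arrays (4.0084, 7.9353 and 5.3633), and Odf1 and Svs4 did not. Akap4 was lowest in replicate 3 (3.68), Odf1 highest in replicate 4 (5.88), Odf2 lowest in replicate 1 (7.89), Lcn5 lowest in replicate 2 (5.28) and Svs4 highest in replicate 2 (5.01). Odf1, Sohlh1 and Tex101 were set apart by replicate 4, which belongs to the smaller array set.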

How the results depend on the processing

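No probe set and no member passed limma's adjusted threshold in the main analysis or under any alternative that allows a test. The median over the measured members ranged from -0.045 to 0.047, over 36 members, or 3 after the filter on low values and 11 without tied probe sets. It stayed within 0.0763 of the main value, a bound taken from the within-group SD of the members' mean level and not from this median. Over the 3 members above the median level it was 0.16 within the 2 arrays of the smaller set, from -0.04 to 0.02 when a sample was left out, and 0.03 at the 75th percentile, which Odf2 passed. Members with an unadjusted p under 0.05 numbered 1 in the main analysis, 2 with quantile normalization, blocked by array set and in the 5 arrays, 0 after the filter on low values, which tested 3 members, and 0 to 3 when a sample was left out. Fabp9 was lower under all 24 alternatives (-1.34 to -0.67, adjusted p from 0.2328 to 1), as were Zp2 (-0.62 to -0.27) and Tnp2 (-0.32 to -0.03). The alternatives share arrays, and some, such as the robust fit and averaging probe sets, returned the main estimate unchanged. These genes were also named for their small p in the lower direction. Their constant sign is therefore no independent support. Signs turned in 15 of 308 alternative values of the named members, and the cause was not tested. Within the 2 arrays Prm1 was 0.25, Svs4 0.051 and Lcn8 0.082. Within the 5 arrays, or blocked by array set and without reconRAG1KO replicate 4 or reconSCID replicate 2, which leaves the same contrast, Odf2 was -0.038 and Tex101 -0.0035. Leaving out samples one at a time gave -0.19 to 0.024 for Prm1 (highest without reconSCID replicate 1), and, each lowest without reconSCID replicate 2, -0.041 to 0.11 for Odf2, -0.010 to 0.31 for Acr and -0.020 to 0.26 for Spaca1. Blocked by array set, Odf2 was -0.012 without reconSCID replicate 1 and Lcn8 0.011 without reconSCID replicate 3. Whether replicate numbers pair the samples could not be told. Deviations of same-numbered arrays correlated at 0.472, -0.508 and 0.314. Of these arrays only reconSCID replicate 2 belongs to the smaller set, so the array sets enter the correlations. With the replicate number as a block 0 members and 0 probe sets passed, the members' median was 0.04 and Fabp9 differed by -1.28. Intensities below the median level limit what could be seen in 33 of 36 members.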
